A study of Mus musculus with 26 samples.

Results

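The 10 core pluripotency transcription factor genes Pou5f1, Sox2, Nanog, Klf2, Klf4, Klf5, Esrrb, Sall4, Zfp42 and Prdm14 were examined for 5-hydroxymethylcytosine (5hmC) in RNA of mouse embryonic stem cells (ESCs). The genes were taken by symbol from the annotation, and a peak was counted for a gene when its summit lay within the annotated span of that gene. Of 56538 peaks in 13 libraries, 30 fell in these genes, and merging overlapping intervals gave 17 regions in 6 of the 10 genes. Nanog, Klf4, Sall4 and Prdm14 held no peak in any library.

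5hmC was mapped by hMeRIP-seq, in which total RNA is fragmented, RNA bearing 5hmC is precipitated with an antibody, and the IP is sequenced beside its input. Wild-type ESCs (WT ESC, n = 3), ESCs lacking Tet1, Tet2 and Tet3 (TKO ESC, n = 3), and embryoid bodies formed by wild-type ESCs over 4 days without LIF (WT EB, n = 3) were compared. A second set held ESCs whose own Tet2 gene was fused at its C-terminus to Flag, HA and Twin-Strep tags, either with the RNA-binding domain (Tet2-KI ESC, n = 2) or without it (Tet2ΔRBD-KI ESC, n = 2). Both knock-in lines were made in WT ESCs by CRISPR-Cas9n and came from picked clones, and all ESCs were kept in serum with LIF. The labels do not say whether replicates were separate cultures, while the paper calls its hMeRIP-seq replicates independent experiments (n = 3). Only 2 libraries of each knock-in line were available here. The p-values measure only the spread between these libraries. An embryoid body holds several cell types, and in such bulk RNA fewer cells of a type and less RNA per cell cannot be told apart. Peak lists give no expression level, so neither cell identity nor the loss of the Tet genes could be checked here.

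The lists differed in length, from 4395 to 7113 peaks in WT ESC, 964 to 4323 in TKO ESC and 498 to 3532 in WT EB, with 10383 and 5781 in Tet2-KI ESC and 4639 and 3318 in Tet2ΔRBD-KI ESC. Sequencing depth is unknown from the lists, so a gene without a peak is a gene in which none passed the caller's threshold, which depends on depth and on how abundant the transcript was. The descriptions of replicate 1 begin with other numbers (1608, or 1610 for WT EB) than those of replicates 2 and 3 (1703) in the 3 groups without knock-ins.

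Pou5f1 (Oct4), Sox2 and Nanog are DNA-binding proteins that occupy the enhancers of stem cell genes together and sustain the undifferentiated state. Klf2, Klf4, Klf5, Esrrb, Sall4, Zfp42 (Rex1) and Prdm14 belong to the wider network of ESC factors. Tet enzymes oxidise 5-methylcytosine to 5hmC, in RNA as well as in DNA.

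The sequences under the 9 regions that were listed in 2 or more libraries are given first, because they are the stretches of these transcripts that were recovered more than once. They are read 5′ to 3′ on the strand of the gene from the mm9 genome (NCBIM37), with T for U, and the capitals span the outermost peak summits. Regions are numbered 5′ to 3′ within a gene. In Sox2, on the plus strand, they lie at chr3:34549018-34549238 (region 1, 5′ UTR), chr3:34549701-34549909 (region 2, coding sequence), chr3:34550329-34550538 (region 4, 3′ UTR) and chr3:34550560-34550774 (region 5, 3′ UTR), and from the UTRs only 30 bases around the summits are shown. The Klf5 region, on the plus strand, is in the 5′ UTR at chr14:99697988-99698245, shown likewise, and 1 of its 3 summits lies beyond the stretch printed.
Sox2 region 1, 5′ UTR: ggcggCCCGAGGAGGAGAGCGCCTGTTttt
Sox2 region 2, coding sequence: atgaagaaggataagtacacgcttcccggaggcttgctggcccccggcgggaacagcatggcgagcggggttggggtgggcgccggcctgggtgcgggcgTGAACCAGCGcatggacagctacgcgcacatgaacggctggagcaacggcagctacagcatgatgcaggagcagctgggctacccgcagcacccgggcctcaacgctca
Sox2 region 4, 3′ UTR: gcagcgaaacGACAGCTGCGGaaaaaaacc
Sox2 region 5, 3′ UTR: gcgcttcgCAGGGAGTTCGCAAAAgtcttt
Klf5 region 1, 5′ UTR: tcgtgaGCGTCTGGCTGCCGGCCCAGGGGT

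The Esrrb regions are intronic, on the plus strand, at chr12:87775139-87775402 (region 1), chr12:87819620-87819997 (region 5, of which 87819629 to 87819928 is printed) and chr12:87832140-87832353 (region 6). The Zfp42 region, chr8:44381792-44382001 on the minus strand, straddles the start of the last exon, and the print stops 30 bases into that exon, at 44381861.
Esrrb region 1, intron: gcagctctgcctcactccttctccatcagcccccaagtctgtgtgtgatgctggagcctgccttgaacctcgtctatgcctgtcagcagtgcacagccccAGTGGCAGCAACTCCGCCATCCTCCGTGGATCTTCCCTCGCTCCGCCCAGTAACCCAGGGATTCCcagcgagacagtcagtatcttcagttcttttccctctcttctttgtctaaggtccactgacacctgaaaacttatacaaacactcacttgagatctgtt
Esrrb region 5, intron: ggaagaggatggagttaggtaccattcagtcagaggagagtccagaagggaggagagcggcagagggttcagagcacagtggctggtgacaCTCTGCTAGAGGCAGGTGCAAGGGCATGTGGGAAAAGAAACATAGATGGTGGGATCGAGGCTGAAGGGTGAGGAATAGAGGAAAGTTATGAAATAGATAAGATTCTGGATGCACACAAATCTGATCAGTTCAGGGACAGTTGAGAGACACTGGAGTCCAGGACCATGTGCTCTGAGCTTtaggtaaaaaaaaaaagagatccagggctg
Esrrb region 6, intron: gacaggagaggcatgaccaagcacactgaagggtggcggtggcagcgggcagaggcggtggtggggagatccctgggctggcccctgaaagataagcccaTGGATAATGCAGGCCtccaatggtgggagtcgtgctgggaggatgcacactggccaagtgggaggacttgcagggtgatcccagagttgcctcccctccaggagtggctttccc
Zfp42 region 1, intron and exon start: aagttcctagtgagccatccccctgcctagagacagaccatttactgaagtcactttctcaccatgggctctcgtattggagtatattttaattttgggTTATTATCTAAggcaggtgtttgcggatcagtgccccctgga

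Across the 13 lists, 6 of the 10 genes held a peak, against 32.2% of all 22380 coding genes. The members are short apart from Esrrb: 9 of them span 2 to 20 kb, and 5 of these 9 held a peak, against 21.7% of coding genes in that class of span. Over 243 kb of span the members held 12.4 peaks per 100 kb, and all coding genes 4.71. The plot of peaks by gene and library shows that most of the members' peaks came from 2 genes, Esrrb with 11 peaks and Sox2 with 9.

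**Figure D1:**
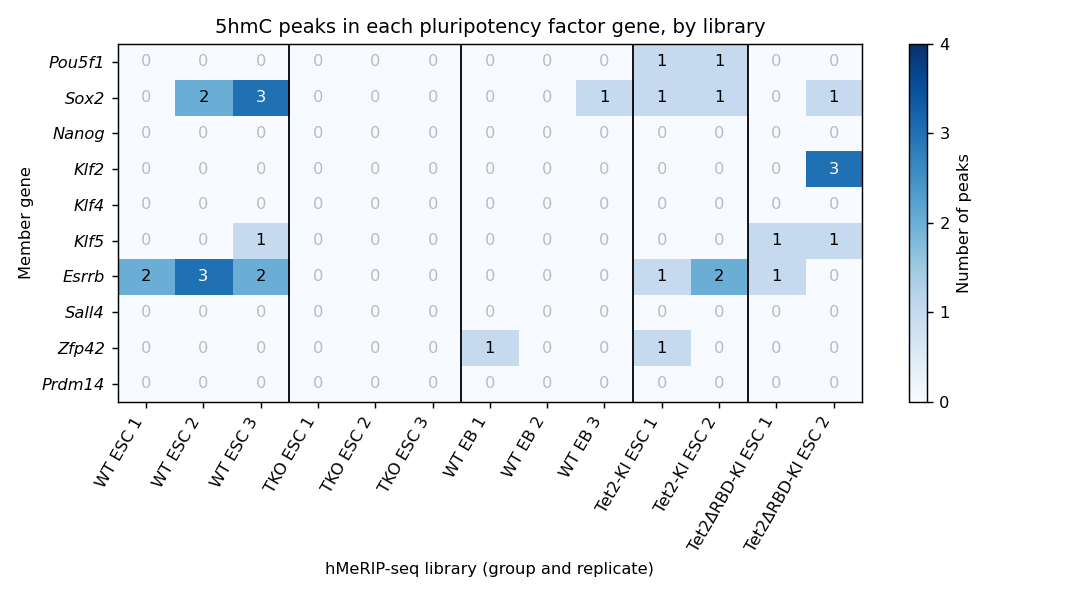
Number of 5hmC peaks (colour and figure in each cell) in each of the 10 genes (rows) and 13 libraries (columns), with vertical lines between groups. Esrrb has a peak in all 3 WT ESC libraries, and the 3 TKO ESC columns are at 0 throughout.

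Of the central trio of factors, Sox2 had 9 peaks, Pou5f1 2 and Nanog 0. Sox2, an HMG-box partner of Oct4, is a gene without introns in its main transcript (chr3:34548927-34551383) and held its peaks in 5 regions and 6 libraries. WT ESC replicate 1 had 0 peaks in Sox2, replicate 2 had 2 and replicate 3 had 3. All 3 TKO ESC libraries had 0, and of the WT EB libraries only replicate 3 had 1. Each Tet2-KI ESC library had 1 peak, as did Tet2ΔRBD-KI ESC replicate 2, whereas Tet2ΔRBD-KI ESC replicate 1 had none. Sox2 lies within Sox2ot, a long non-coding RNA gene on the same strand that covers all 9 peaks, so reads from the 2 transcripts cannot be told apart.

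Along Sox2, the WT ESC, WT EB and Tet2ΔRBD-KI ESC peaks shared no position, as the map of the gene shows. Of all regions in coding genes with a WT EB peak, 49.5% were in no WT ESC library. The shares for Tet2ΔRBD-KI ESC were not computed. The 3′ UTR regions 4 and 5 were each listed in WT ESC replicates 2 and 3 and in no library of another group. Their fold enrichment, the ratio of IP to input signal at the summit, was 3.38 and 3.73 in region 4 and 5.10 and 2.83 in region 5. Region 1, in the 5′ UTR, was listed in WT ESC replicate 3 (fold enrichment 2.77) and Tet2-KI ESC replicate 1. The coding sequence held region 2, listed in Tet2-KI ESC replicate 2 and Tet2ΔRBD-KI ESC replicate 2 with summits at 34549801 and 34549810. It also held region 3 (chr3:34550047-34550246), found in WT EB replicate 3 alone with a fold enrichment of 3.47.

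**Figure D2:**
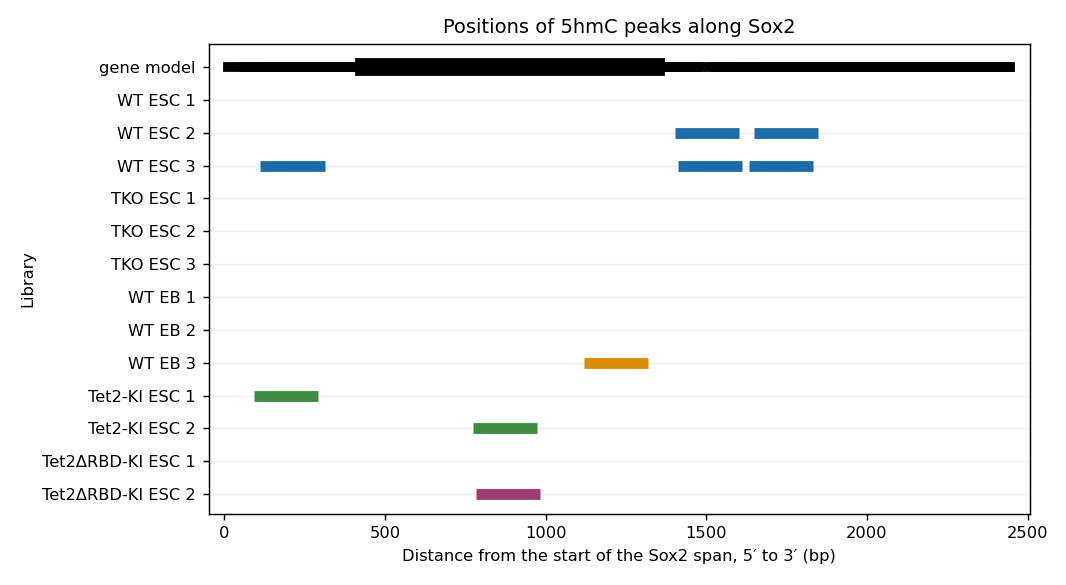
Positions of the 200 bp peak intervals (bars) along Sox2 in bp from the start of its span, 1 row per library, coloured by group. The gene model is thick over the coding sequence. The 2 regions in the 3′ UTR hold peaks of WT ESC replicates 2 and 3 only.

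Pou5f1, which encodes the POU-domain factor Oct4 (chr17:35642982-35647721, plus strand), held a peak in both Tet2-KI ESC libraries and in none of the other 11. The peaks did not overlap. That of replicate 2 (chr17:35643035-35643234) lay in the coding sequence 153 bp from the start of the gene, and that of replicate 1 (chr17:35646991-35647190) had its summit in an intron 7 bp from a splice site. Of the words of 32 bases in the coding region, 19 of 169 (11.2%) occurred at 1 other place in the genome each, against 0 in the intronic region, so the assignment of reads over that stretch is uncertain. Nanog, the homeodomain member of the trio (chr6:122657507-122664651), had no peak, and the nearest one lay 13.9 kb upstream, in WT ESC replicate 2 with a fold enrichment of 6.94.

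The Krüppel-like factors are zinc-finger proteins with overlapping functions in ESC self-renewal. Klf5 (chr14:99697910-99712624) held its only region in the 5′ UTR, 178 to 236 bp from the start of the gene, in both Tet2ΔRBD-KI ESC libraries and in WT ESC replicate 3. The WT ESC peak had a fold enrichment of 1.59, at percentile 0.0615 of its list. Neither Tet2-KI ESC library had a peak within Klf5, although replicate 1 had one 0.120 kb past its 3′ end (summit at 99712744). Klf2 (chr8:74842932-74845555) held 3 peaks, all in the coding sequence and all in Tet2ΔRBD-KI ESC replicate 2, and they formed 2 regions, chr8:74843380-74843745 and chr8:74843849-74844048. Klf4 (chr4:55540013-55545347), a reprogramming factor, had none, and the nearest was 4.85 kb upstream in WT ESC replicate 1 (fold enrichment 5.37).

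Esrrb, an orphan nuclear receptor of the self-renewal network (chr12:87702067-87862578), was the only member with a peak in every WT ESC library. WT ESC replicates 1, 2 and 3 had 2, 3 and 2 peaks, and all TKO ESC and WT EB libraries had 0. Tet2-KI ESC replicates 1 and 2 had 1 and 2 peaks, and Tet2ΔRBD-KI ESC replicates 1 and 2 had 1 and 0. Among all coding genes, 4.99% had a peak in every WT ESC library, 1.05% had this with no TKO ESC peak, 2.06% with no WT EB peak, and 0.822% with no peak in either. At 161 kb Esrrb is a long gene, and of coding genes spanning 100 to 250 kb, 2.12% met the last rule. Per length, Esrrb held 6.85 peaks per 100 kb over the 13 lists.

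All 11 Esrrb peaks lay in introns, which make up 96.5% of its span, and their summits were 2627 to 16544 bp from the nearest splice site. Region 5 held 4 peaks in 3 libraries, and no member region was in more libraries, the Klf5 region also being in 3. Its fold enrichment was 5.81 in WT ESC replicate 1 and 3.86 and 5.26 at the 2 summits of replicate 2, and it was also listed in Tet2-KI ESC replicate 1. Region 1 was listed in WT ESC replicates 1 and 3 (fold enrichment 5.73 and 6.74) and in no other library. Region 6 was listed in Tet2-KI ESC replicate 2 and Tet2ΔRBD-KI ESC replicate 1, at summits 14 bp apart. The remaining 3 regions were in 1 library each: region 2 in Tet2-KI ESC replicate 2, region 3 in WT ESC replicate 2 (5.98) and region 4 in WT ESC replicate 3 (6.97). Thus each WT ESC library had a peak in Esrrb, but no single position was listed in all 3.

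**Figure D3:**
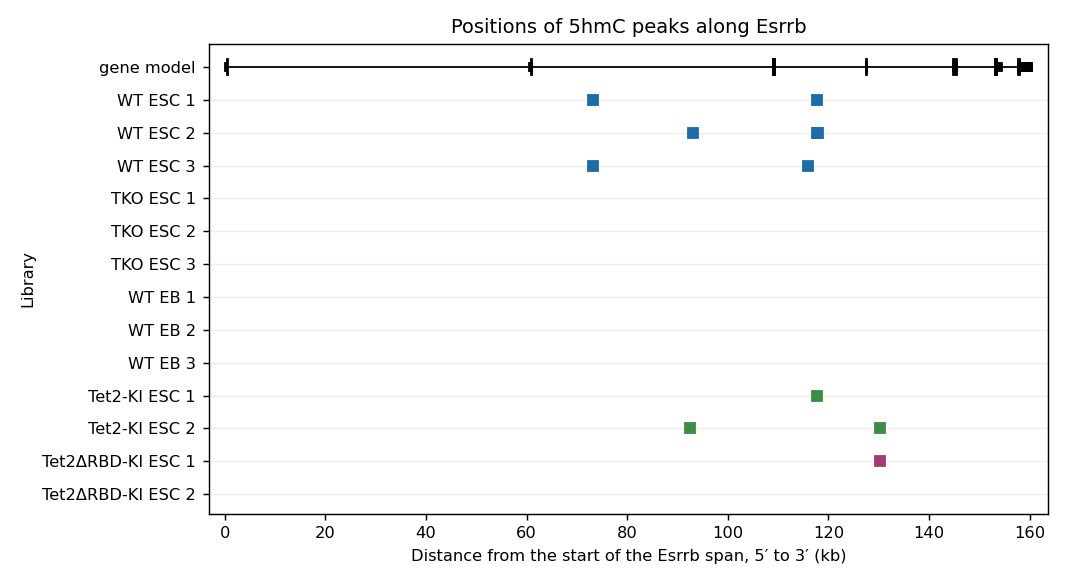
Summits of peaks (squares, not to the scale of the interval) along Esrrb in kb from the start of its span, 1 row per library, coloured by group. Exons are the ticks of the gene model. All 11 squares lie between exons, and the TKO ESC and WT EB rows are empty.

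Of the other factors, only Zfp42 held peaks. Zfp42 (chr8:44380422-44392363, minus strand) encodes the zinc-finger protein Rex1, long used as a marker of undifferentiated cells. Its one region was listed in WT EB replicate 1 (fold enrichment 4.53) and Tet2-KI ESC replicate 1, with summits 2 and 12 bp inside the intron before the last exon. Of the words of 32 bases in it, 68 of 179 (38.0%) occur elsewhere in the genome, so its assignment to Zfp42 is uncertain. Sall4 (chr2:168573832-168593443), a spalt-family zinc-finger factor, had no peak within its span, but 1 of WT ESC replicate 3 lay 0.912 kb past its 3′ end (summit at 168572920, fold enrichment 6.52). Prdm14 (chr1:13103538-13117244), a PR-domain factor of naive ESCs and germ cells, had none, and the nearest lay 131 kb upstream.

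The first comparison asked whether the genes carry fewer peaks in cells without Tet enzymes. WT ESC replicates 1, 2 and 3 had 2, 5 and 6 peaks in the members, and the TKO ESC libraries had 0, 0 and 0, so the groups did not overlap. The mean was 4.33 ± 2.08 (SD, n = 3) against 0, a difference of 4.33 peaks (two-sided exact permutation test, p = 0.100, the smallest value that 3 against 3 allows, and 0.225 after Benjamini-Hochberg adjustment over the 9 tests made). Sox2, Klf5 and Esrrb had a peak in at least 1 WT ESC library, 3 of 10 against 19.7% of all coding genes, and 0 of 10 had one in TKO ESC, against 11.4%. With the 1703 libraries alone the difference was 5.50 peaks (exact permutation p = 0.333, the smallest possible for 2 against 2), and the 1608 pair is a single library each.

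The TKO ESC lists were shorter, and as shares of the lists the values were close to what a count of 0 can resolve. The members took 0.0455%, 0.0703% and 0.0923% of peaks in WT ESC replicates 1, 2 and 3 (exact Clopper-Pearson 95% intervals 0.00551 to 0.164%, 0.0228 to 0.164% and 0.0339 to 0.201%, for counting error only). For the counts of 0 in TKO ESC replicates 1, 2 and 3, the same intervals reach up to 0.382%, 0.0853% and 0.113%, and the simpler limit of 3 counts in the list gives 0.311%, 0.0694% and 0.0920%. The mean WT ESC share of 0.0694% ± 0.0234 (SD, n = 3) lay within the exact interval of each TKO ESC library, so a lower share was not detectable in a single TKO ESC list at this length (exact permutation p = 0.100 over the 3 libraries a group). When each of the 9 lists was shortened to its 498 peaks of highest fold enrichment, no member peak was left in WT ESC or TKO ESC. The TKO ESC counts were 0 before this step, which could lower only those of WT ESC and so cannot show whether list length matters.

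The second comparison, which used the same WT ESC libraries, concerned differentiation. WT EB replicates 1, 2 and 3 had 1, 0 and 1 member peaks, all below the 2 to 6 of WT ESC. The mean of 0.667 ± 0.577 (SD, n = 3) was 3.67 peaks lower (exact permutation p = 0.100, adjusted 0.225). With every list shortened to 498 peaks, WT ESC minus WT EB was -0.333 peaks and -0.333 genes. The list of WT EB replicate 1 has that length and was not cut. In member genes with a peak the groups overlapped, at 1, 2 and 3 genes in WT ESC and 1, 0 and 1 in WT EB (difference 1.33, exact permutation p = 0.30, adjusted 0.540). That difference was 0.833 without WT ESC replicate 3. Only Sox2 and Zfp42 held a WT EB peak, 2 of 10 against 8.32% of all coding genes. Neither of these 2 regions was listed in WT ESC, as was the case for 49.5% of the 3863 regions with a WT EB peak in coding genes. As a share of the list the direction was not the same. The members took 0.201%, 0% and 0.0283% of WT EB peaks, the first being 1 peak of 498, and the mean of 0.0764% ± 0.109 (SD, n = 3) did not differ from WT ESC beyond the spread (difference -0.00700 percentage points, exact permutation p = 1.00). Without WT EB replicate 1 the difference was 0.0552 points, with the higher share in WT ESC (exact permutation p = 0.200).

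The third comparison addressed the RNA-binding domain of Tet2. The Tet2-KI ESC libraries had 4 and 4 member peaks and the Tet2ΔRBD-KI ESC libraries 2 and 5, so the groups overlapped (difference 0.500, exact permutation p = 1.00). As shares of the lists these were 0.0385% and 0.0692% against 0.0431% and 0.151% (difference -0.0430 points, exact permutation p = 0.667). In at least 1 library, 4 of 10 members had a Tet2-KI ESC peak (Pou5f1, Sox2, Esrrb and Zfp42) against 22.3% of coding genes, and 4 of 10 a Tet2ΔRBD-KI ESC peak (Sox2, Klf2, Klf5 and Esrrb) against 16.3%. In both libraries of the group, Pou5f1, Sox2 and Esrrb had a Tet2-KI ESC peak (10.3% of coding genes did) and Klf5 a Tet2ΔRBD-KI ESC peak (5.91%). Tet2ΔRBD-KI ESC replicate 2 held 5 of the 7 peaks of its group, 3 of them in Klf2, and without it the difference in shares was 0.0107 points, with the higher share in Tet2-KI ESC.

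Of the 17 regions, 9 (52.9%) were in 2 or more libraries, against 45.7% of all 19450 regions in coding genes. Recovery in every replicate of a group was rarer. None was in all 3 WT ESC libraries, against 5.78%, and none in both Tet2-KI ESC libraries, against 14.3%. The Klf5 region was the 1 of 17 listed in both Tet2ΔRBD-KI ESC libraries and in no Tet2-KI ESC library, a pattern of 1.07% of regions. The 4 regions Sox2 regions 4 and 5 and Esrrb regions 1 and 5 were in 2 of the 3 WT ESC libraries, 4 of 17 against 15.3% of regions in coding genes that were in 2 or more of them. No region was present in every library of both groups of any comparison, so fold enrichment could not be compared between groups at the same position.

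In the plot of fold enrichment by library, the Sox2 peaks lie mostly below the Esrrb peaks, with overlapping ranges. The 5 Sox2 peaks in WT ESC ranged from 2.77 to 5.10 with a median of 3.38, and they lay between percentiles 1.82 and 33.3 of their own lists. The 7 Esrrb peaks in WT ESC ranged from 3.86 to 6.97 with a median of 5.81, between percentiles 11.0 and 68.0. Of all 15 member peaks with a fold enrichment, 3 lay above the median of their list, all of them in Esrrb. The 13 of WT ESC had a median of 5.10, against 5.78 for all peaks of the WT ESC lists. These values describe peaks that share libraries and were not tested.

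**Figure D4:**
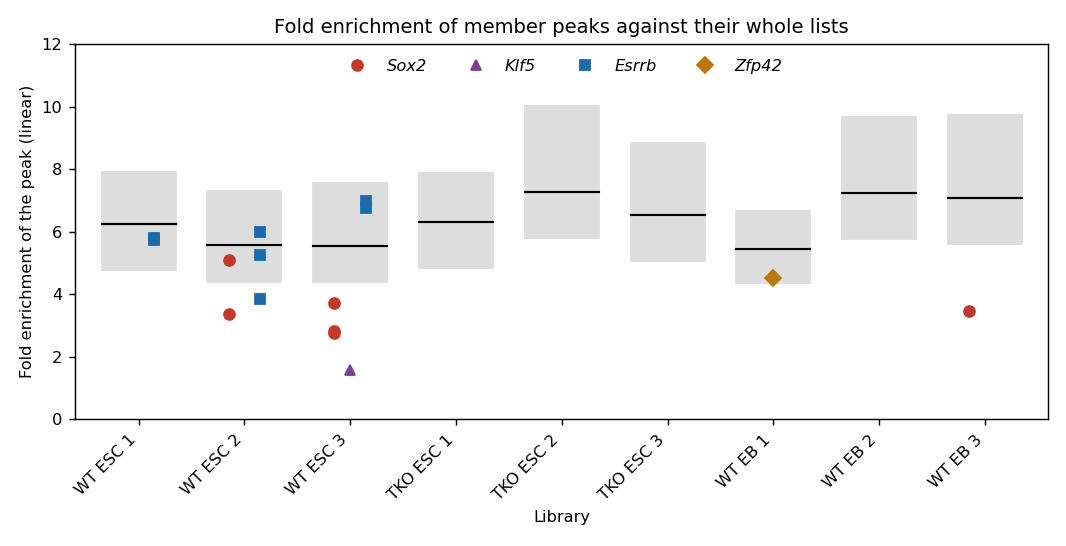
Fold enrichment of IP over input (linear) of the 15 member peaks in the 9 libraries that report it. Grey boxes span the quartiles of each whole list and black lines its median. All Sox2 peaks lie below the line and 3 of the 7 Esrrb peaks above it.

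By transcript part, 14 of the 30 peaks (46.7%) were intronic, 7 (23.3%) in coding sequence, 5 (16.7%) in a 5′ UTR and 4 (13.3%) in a 3′ UTR. For all 47901 peaks in coding genes the shares were 67.9%, 23.7%, 4.57% and 3.81%. The 5′ UTR peaks were in Sox2 and Klf5 and the 3′ UTR peaks in Sox2 alone, while 11 of the 14 intronic peaks were in Esrrb. Introns make up 88.1% of the members' summed span.

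Base composition varied among the members, and its ranges overlapped between genes. The 15 peak intervals in Sox2, Klf2 and Klf5, all exonic, had a median GC content of 68.0% and a median of 17 CG dinucleotides in 200 bases. The 11 of Esrrb, all intronic, had 51.0% and 3. Over all 30 member intervals, Pou5f1 and Zfp42 included, the medians were 57.0% and 7. All peaks of coding genes had 46.0% and 2, the exonic ones 49.0% and 4 and the intronic ones 45.5% and 1. Single intervals ran from 37.5 to 78.5% GC in Sox2, Klf2 and Klf5 and from 40.5 to 63.0% in Esrrb. Sox2 region 4, in the 3′ UTR, had the same 40.5% as the lowest of Esrrb. Pyrimidines (C or T) made up a median of 47.8% of the 30 member intervals, from 28.5 to 63.0%, against 41.0% in all, and C alone 28.5% against 16.5%. Words were searched on the strand of the annotated gene, each with its reverse complement counted apart. That strand was assumed, since none was read from the peak lists. TCTCTC was in 1 of 30 intervals (3.33%) against 6.54% of all and its reverse complement GAGAGA in 6 (20%) against 21.7%. TTCTTC was in 0 against 5.14%, and its reverse complement GAAGAA in 1 (3.33%) against 21.8%. Runs of 12 or more pyrimidines were in 4 intervals (13.3%) against 10.5%, the longest being the 20 bases ttcttttccctctcttcttt in Esrrb region 1. Runs of 12 or more purines were in 10 intervals (33.3%) against 37.3%, the longest being 37 bases in Sox2 region 1. Overlapping intervals share sequence, and these counts are descriptions.

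Beside the 10 core factors stood 31 other pluripotency-associated genes and 17 early lineage genes, the latter such as Sox17 and Krt8 that are switched on as cells leave the stem cell state. A peak was found in 24 of the 31 pluripotency-associated genes (77.4%), 4 of the 17 lineage genes (23.5%) and 6 of the 10 core factors (60.0%). Of all coding genes, 32.2% held one. In peaks per 100 kb and library, the core factors had 1.78 for WT ESC, 0 for TKO ESC and 0.275 for WT EB. In the same order, the other pluripotency-associated genes had 1.48, 0.927 and 0.742, and all coding genes 0.438, 0.249 and 0.181. The early lineage genes had 0.398, 0 and 0.265, so the core factors were not alone in having no TKO ESC peak. Of the 31, 7 had a TKO ESC peak, against 11.4% of all coding genes. Among the 7 was Dppa4, listed in TKO ESC replicates 1 and 2 and in no other library.

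**Figure D5:**
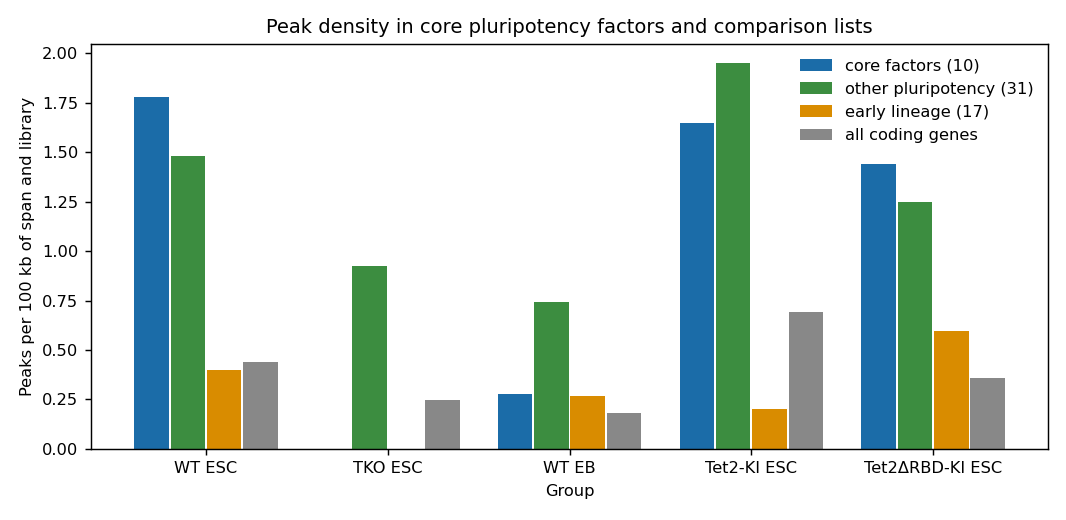
Peaks per 100 kb of gene span and library (bars from 0, no error bars, all libraries of a group pooled) for the core factors, 2 comparison lists and all coding genes in the 5 groups. The core factors and the early lineage genes have no bar in TKO ESC, where the other pluripotency genes stand at 0.927.

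Tcf7l1, a repressor of the Wnt pathway, Zfx and Rif1 were the 3 of the 31 with a peak in every WT ESC library, against 4.99% of all coding genes. Of all regions in coding genes, 5.78% were present in every WT ESC library. Rif1, a factor of replication timing and DNA repair, had the only such region of either list, in an intron at chr2:51934086-51934537. It was listed with a fold enrichment of 11.0 and 8.02 in WT ESC replicate 1, 4.40 and 3.38 in replicate 2 and 7.55 in replicate 3, and in none of the other 10 libraries. The gene as a whole held TKO ESC and WT EB peaks elsewhere, up to 4 in TKO ESC replicate 2 and 6 in WT EB replicate 3. No core factor had a region of this kind.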

How the data were processed

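Peak lists of 13 IP libraries were analysed; those of the inputs were not used here. Per the submitters' notes and the study's methods, the authors removed reads of tRNA and rRNA (Bowtie2), trimmed the rest (Trimmomatic), aligned them to mm9 with STAR and called peaks for every IP over its matched input with MACS2 (q below 0.05), resized to 200 bp around the summit. Their versions are not given in the sources used here. The 9 deposited lists other than the knock-ins hold fold enrichment, a ratio of IP to input; the 4 knock-in lists hold positions only. Thresholded lists miss weak peaks in shallow or lowly expressed transcripts.

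Summits (interval midpoints) were assigned to spans of protein-coding genes in GENCODE M1 on NCBIM37, the mm9 assembly, and intervals overlapping by at least 1 bp were merged per gene. Transcript part was that of the summit. All 10 members were described, every region in 2 or more libraries in full. Of the other lists (32 and 18 symbols, of which Tfcp2l1 and Sox1 were not matched), genes with a region in every WT ESC library were named, while Dppa4, Tcf7l1, Zfx, Sox17 and Krt8 were named after their values were seen. Members and lists were chosen with earlier results of these data known. Groups were compared over libraries with two-sided exact permutation tests (scipy 1.17.1, Python 3.11.15). Assignment and merging were checked on peaks planted at known positions, and the permutation test on a set of values with a known p. These checks concern the code only. Sequences were read with samtools 1.23.1. Alternatives were any overlap with the span, spans widened by 1000 bp, fold enrichment at or above 5, lists shortened to 498 peaks, the 1703 libraries alone, a replicate block and each library left out. No 2 lists shared more than 1.97% of identical intervals.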

Additional observations from a re-analysis of the deposited data

How the results depend on the processing

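Of 148 recomputed values, 117 had the same sign or, for counts, stayed within 1.5 times. The smallest p that any of these group sizes allows is 0.100. No setting could therefore pass 0.05, and the side of 0.05 was fixed in advance. Some counts could not move either, such as regions in every WT ESC library when a TKO ESC library was left out. Shortening every list to its 498 strongest peaks took the differences between WT ESC and TKO ESC in peaks, genes and percent to 0, TKO ESC being at 0 already. Those between WT ESC and WT EB turned to -0.333 peaks and -0.333 genes. No WT ESC member peak is among the strongest 498 of its list. WT EB replicate 1, whose whole list is 498 peaks, was not shortened and kept its 1 member peak. The difference in percent between WT ESC and WT EB, -0.00700, was 0.0574 at a fold enrichment of 5 or more and 0.0672 in the 1703 libraries. Leaving out 1 library in turn moved it from -0.0452 to 0.0552. The same step moved the difference between Tet2-KI ESC and Tet2ΔRBD-KI ESC from -1 to 2.00 in peaks and from -0.0968 to 0.0107 in percent, while the peak differences stayed at 3.50 to 5.50 against TKO ESC and 2.83 to 4.83 against WT EB.

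Regions present in every WT ESC library, and those of them without a TKO ESC or a WT EB peak, numbered 0 in each case. They numbered 4 when 2 of 3 replicates sufficed, 2 in the 1703 libraries, and 0 to 2 with 1 library left out. Regions in every Tet2-KI ESC library numbered 0 to 4 when 1 library was left out, those without a Tet2ΔRBD-KI ESC peak 0 to 4, and the reverse 1 to 3. Leaving out a library of a group of 2 leaves a single library, so the upper values are not regions shared between replicates. With a replicate block (an exact sign-flip test on differences within replicate numbers) p was 0.250 for the difference of 4.33 peaks between WT ESC and TKO ESC and for that of 3.67 against WT EB, the smallest value 3 pairs allow. Same-numbered libraries of WT ESC and TKO ESC correlated by 0.310, 0.208 and 0.0384 across genes in their deviations from the group means. Different-numbered ones correlated by -0.260 to 0.0531. For WT ESC and WT EB, same-numbered libraries correlated by 0.238, 0.0363 and 0.0333 and the others by -0.200 to 0.167. The main tests did not take the numbers as pairs, and the replicate block did. Fold enrichment at shared regions had no value under any alternative, since no such region existed. The lists carry no depth, and weak or lowly expressed transcripts may lack peaks for that reason, which was not tested.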
